A study of Mus musculus with 10 samples.

Results

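The regions described here are the DNase I hypersensitive (DHS) sites around Nr4a1, Nr4a2 and Nr4a3, the 3 genes of a small family of nuclear receptors. A site was taken when it overlapped by at least 1 bp a window that reached about 100 kb beyond each side of the gene, on the mm9 mouse genome. The windows were chr15:100985000-101205000 for Nr4a1, chr2:56860000-57080000 for Nr4a2 and chr4:47958000-48200000 for Nr4a3. They held 38 of the 129028 sites in the list, 26 at Nr4a1, 6 at Nr4a2 and 6 at Nr4a3, with 290 of its 329076 footprints. All footprints counted lay inside these sites.

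The cells were 3T3-L1 preadipocytes, a line derived from mouse embryo fibroblasts that can mature into fat cells, collected 4 h after induction with 1 µM dexamethasone (a glucocorticoid), 0.5 mM 3-isobutyl-1-methylxanthine (which blocks the breakdown of cyclic AMP), 10% fetal calf serum and 1 µg/mL insulin. The enzyme DNase I releases short fragments where chromatin is accessible, and a footprint is a short stretch of a DHS site with few cuts. Both DNase samples were runs of 1 library, pooled by the authors with an older run, so the site list and the footprint list had no replicate and no uninduced counterpart. The 8 RNA samples, 4 groups of 2 at 0 h or 4 h, with an shRNA that was scrambled or directed at C/EBPβ (a regulator of early adipogenesis), were not analysed here.

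The Nr4a receptors (Nur77, Nurr1 and Nor1 for Nr4a1, Nr4a2 and Nr4a3) are transcription factors that need no known ligand. Their activity follows mainly from how much of them is made. They are immediate early genes: cyclic AMP activates protein kinase A, which phosphorylates CREB on promoters that carry the cyclic AMP response element, and the genes are transcribed within a short time without new protein. In preadipocytes the inducing mixture is known to raise their transcripts briefly.

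The promoters of all 3 genes carried the core of the cyclic AMP response element, TGACG, in 4 copies each, and are shown because the genes are known as targets of CREB. The sequences are RefSeq promoters of build GRCm38.p6, from 250 bases before to 50 after an annotated transcript start, in the direction of transcription. They lie at chr15:101266596-101266895 on the plus strand, chr2:57123954-57124253 on the minus strand and chr4:48045055-48045354 on the plus strand. For Nr4a1 this start lies within the annotated gene and not at its low end. These positions cannot be set beside the mm9 positions of the sites, so which DHS site holds which promoter was not determined. Capitals mark TGACG on either strand, which reads CGTCA where it lies on the reverse strand.
Nr4a1: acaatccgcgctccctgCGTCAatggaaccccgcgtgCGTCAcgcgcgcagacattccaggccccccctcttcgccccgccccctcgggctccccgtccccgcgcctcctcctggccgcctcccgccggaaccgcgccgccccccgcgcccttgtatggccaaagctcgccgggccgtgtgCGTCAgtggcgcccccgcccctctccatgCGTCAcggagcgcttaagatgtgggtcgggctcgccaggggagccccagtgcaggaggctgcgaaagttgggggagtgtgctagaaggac
Nr4a2: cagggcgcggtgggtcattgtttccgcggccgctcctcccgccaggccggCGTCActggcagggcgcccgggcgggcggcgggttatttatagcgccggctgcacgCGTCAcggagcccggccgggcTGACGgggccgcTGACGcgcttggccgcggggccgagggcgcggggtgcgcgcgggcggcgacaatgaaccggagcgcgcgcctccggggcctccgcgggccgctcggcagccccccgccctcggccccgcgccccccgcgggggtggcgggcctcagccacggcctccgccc
Nr4a3: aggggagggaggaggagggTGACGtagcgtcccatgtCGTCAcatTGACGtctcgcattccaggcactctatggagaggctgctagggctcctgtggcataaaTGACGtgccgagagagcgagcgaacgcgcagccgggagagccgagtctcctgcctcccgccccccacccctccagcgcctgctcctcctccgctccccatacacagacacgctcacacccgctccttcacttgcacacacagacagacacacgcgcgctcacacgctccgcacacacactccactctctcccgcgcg

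Of 32851 RefSeq promoters of the same length, 20.8% held at least 1 TGACG, and 76 (0.231%) held 4 or more. The 3 promoters are rich in G and C, at 64.7 to 81.7% against a median of 52.7%, and held 26 to 52 CG pairs against a median of 7. The motif contains CG itself. Among the 5543 promoters with at least 26 CG pairs, 36.9% held the motif and 0.920% held 4 or more copies. In Nr4a1 all 4 copies lay on the reverse strand, the nearest from -40 to -36 relative to the transcript start. Nr4a2 had 2 copies on each strand, all between -200 and -107, and Nr4a3 had 3 forward and 1 reverse copy between -231 and -143. The full palindrome TGACGTCA, found in 1.79% of promoters, was in none of the 3. The AP-1 motif TGANTCA (7.81% of promoters), the C/EBP motifs TTGCGCAA (0.183%) and TTGCNNAA (10.8%), the glucocorticoid receptor element's AGAACA (19.0%), the Nr4a element AAAGGTCA (1.51%) and the CArG box (1.63%) were also not in these windows of 300 bases. Nr4a2 alone had a TATAAA, on the reverse strand (13.6% of promoters). All motifs were searched on both strands, and TGACGTCA and TTGCGCAA are special cases of TGACG and TTGCNNAA. A TGACGTCA therefore counts as 2 copies of TGACG, also in the shares of promoters with 4 or more.

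**Figure D1:**
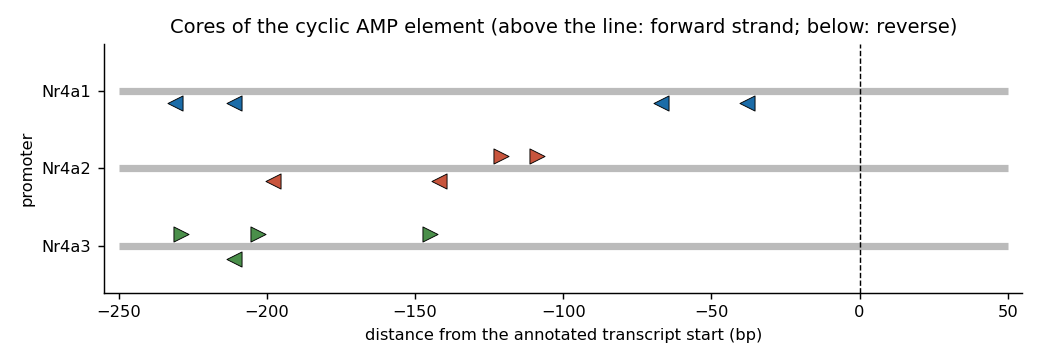
Positions of the TGACG core of the cyclic AMP response element in the RefSeq promoters of Nr4a1, Nr4a2 and Nr4a3, in bp from the annotated transcript start (dashed line). Triangles above the grey bar point to copies on the forward strand and those below to copies on the reverse strand, 4 per promoter, all of them before the start.

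The 3 windows differed in their number of open sites. The Nr4a1 window had 11.8 sites per 100 kb, against 2.73 at Nr4a2 and 2.48 at Nr4a3. The contrast with Nr4a2 lay in the flanks: with 100 kb taken off both ends of each window, 3 sites were left at Nr4a1, 3 at Nr4a2 and 2 at Nr4a3, which is 15.0, 15.0 and 4.76 sites per 100 kb. In the whole windows, neighbouring sites at Nr4a1 lay a median of 6073 bp apart, while the distance was 24052 bp at Nr4a2, 34715 bp at Nr4a3 and 10269 bp over the list. The 26 sites of the Nr4a1 window were reached in 169 (1.47%) and its 183 footprints in 91 (0.790%) of all 11523 stretches of 220 kb that held a site, whose medians were 11 sites (interquartile range 7 to 14) and 13 footprints (1 to 43). As many sites as at Nr4a2 were found in 86.9% of the stretches, and its 55 footprints were reached in 18.5%. The Nr4a3 window held 52 footprints, which scaled to 220 kb is 47.3, a number reached in 22.1% of stretches. Most footprints at Nr4a2 and Nr4a3 were in 2 sites each, with 78.2% and 75% of those of the window. In the GRCm38 gene order Nr4a1 follows Acvrl1 (a receptor of the TGF-β family), Acvr1b (a type I activin receptor) and Grasp (a scaffold protein), and precedes Atg101 (an autophagy factor), Smim41 and Krt80 (a keratin), with unnamed gene models left out. Nr4a2 has Kcnj3 (a potassium channel) before it and Gpd2 (mitochondrial glycerol-3-phosphate dehydrogenase) after it, and Nr4a3 has Sec61b (a subunit of the translocon) and Stx17 (a syntaxin of autophagosomes). Positions of neighbours on mm9 were not used here, so no site is assigned to a gene.

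**Figure D2:**
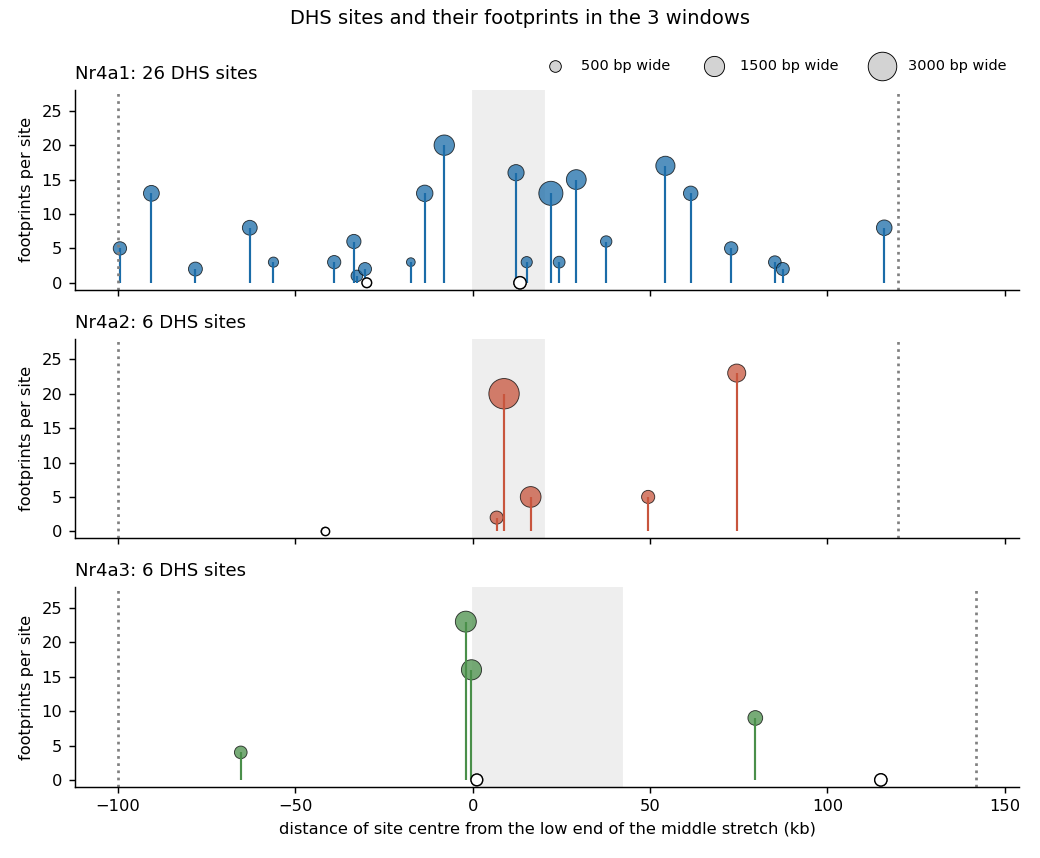
DHS sites along the 3 windows, as the distance of the site's centre (kb) from the low end of the middle stretch, against the number of footprints in the site. Circle area grows with site width, open circles are sites without a footprint, the grey band is the middle stretch and dotted lines are the window's ends. The 26 sites at Nr4a1 were spread over the window, and the most footprinted of the 6 at Nr4a2 and of the 6 at Nr4a3 were a few broad sites.

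Sites with footprints were frequent at all 3 loci. At least 1 footprint was found in 24 of 26 sites at Nr4a1 (92.3%, 95% Wilson interval 75.9 to 97.9%), in 5 of 6 at Nr4a2 (83.3%, 43.6 to 97.0%) and in 4 of 6 at Nr4a3 (66.7%, 30.0 to 90.3%), 33 of 38 in all (86.8%), against 45.4% of all sites. The intervals cover counting error only and treat neighbouring sites as independent. The intervals of Nr4a2 and Nr4a3 both include the share over all sites, whereas that of Nr4a1 lies above it. Sites with 10 or more footprints numbered 8 of 26, 2 of 6 and 2 of 6, or 31.6% over the 3 windows, against 7.88% of all sites. Neither the share with a footprint nor the share with 10 or more is matched for site width. Wider sites held more footprints, from a mean of 0.0578 in the narrowest width class to 20.1 in the widest. The window sites had a median width of 655 bp, against 532 bp over all sites. Sites of at least 1000 bp were 4 of 26, 3 of 6 and 2 of 6, or 23.7% together, against 11.6% of all sites. Read depth is unknown, so more cuts and more bound protein cannot be told apart in any of these counts. The lists come from 1 library, so no difference between the loci or from the list was tested.

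The number of footprints was also set beside that predicted from site width, the mean over all sites of like width. The Nr4a1 sites carried 183 footprints where 110 were predicted, a ratio of 1.67. The Nr4a3 sites carried 52 against 33.5 predicted (1.55) and the Nr4a2 sites 55 against 46.2 (1.19). More footprints than predicted were found in 22 of 26 sites at Nr4a1, 3 of 6 at Nr4a2 and 4 of 6 at Nr4a3, which is 76.3% of the 38 sites against 29.9% of all sites. These 2 shares are not matched for width. In classes up to a median width of 464 bp the upper quartile was 0 footprints, so most of their sites lay below the mean. The window sites were wider, with a median of 655 bp against 532 bp over all sites. The ratio at Nr4a2 rests on 1 site of 1202 bp, at 74.4 kb from the low end of the middle stretch. With the windows shortened by 50 kb at both ends, which leaves this site out, the ratio was 0.862. It was 1.63 at Nr4a1 and 1.54 at Nr4a3 under the same change.

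**Figure D3:**
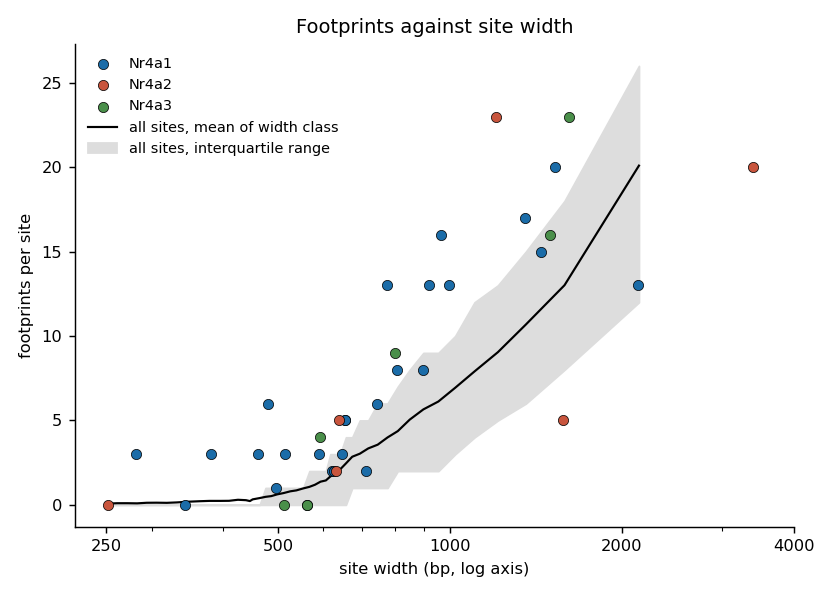
Footprints per site against site width (bp, log axis) for the 38 sites of the 3 windows. The black line is the mean and the grey band the interquartile range of all 129028 sites in classes of like width, drawn at each class's median width. Most Nr4a1 sites lie above the line, also in the narrow range, where sites of 282 and 381 bp hold 3 footprints each and a site of 479 bp holds 6.

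At Nr4a1, footprints were spread over many sites. The 5 sites with the most held 81 of the 183 footprints (44.3%), and the site with the most held 10.9%. The middle stretch, which is the window less 100 kb at both ends and is about the gene itself, had 3 sites with 19 footprints. The 100 kb before it had 13 sites with 79 footprints, and the 100 kb after it had 10 sites with 85. The gene is transcribed toward higher positions, so the side before the gene is upstream. Positions below are of the site's centre, in kb from the low end of the middle stretch, with negative values before it.

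The Nr4a1 site with the most footprints was chr15:101076215-101077744, at -8.02 kb. It was 1530 bp wide and held 20 footprints, where 13.0 were predicted, and 18.5% of sites of like width held as many. The strongest footprint of all 3 windows lay in it, chr15:101076761-101076781, with a score of -12.04. The score comes from the authors' list, has no stated scale and is below 0 for every footprint, and lower was read as stronger. Of its 20 footprints 14 lay together from 101076510 to 101077030, and 9 were among the strongest 10% of the list.

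Within the middle stretch of Nr4a1, chr15:101096730-101097695 (at 12.2 kb) packed 16 footprints into 966 bp. This is 16.6 per kb, with 6.12 predicted, and 1.12% of sites of like width held as many. In this site 7 of the 15 gaps between footprints were under 10 bp, and 1 footprint was among the strongest 10%. Its neighbour chr15:101098057-101098618, 361 bp further on and 562 bp wide, held no footprint. The third site of the stretch, chr15:101100000-101100459, held 3 footprints in 460 bp.

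Beyond the middle stretch of Nr4a1, the widest site of the window was chr15:101105970-101108106 at 22.04 kb. It held 13 footprints in 2137 bp, fewer than the 20.1 predicted, in a group of 7 and a group of 6 with 724 bp between them. None of these was among the strongest 10%, and 9 were in the weaker 50%. A site of 1445 bp, chr15:101113485-101114929 at 29.2 kb, held 15 footprints, of which 4 were among the strongest 10%. A site of 1353 bp, chr15:101138654-101140006 at 54.3 kb, held 17. Median scores were -3.93, -5.28 and -4.60 in the order given, so the broadest of these 3 sites had the fewest footprints and the weakest median.

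Some smaller sites at Nr4a1 held more footprints than most sites of their width. A site of 776 bp at 61.5 kb, chr15:101146080-101146855, held 13 where 3.99 were predicted, and 0.275% of sites of like width held as many. It was chosen here after its values were seen, as were the next 3. The site chr15:101122398-101122876 held 6 in 479 bp (0.691% of sites of like width). The site chr15:101067412-101067693 held 3 in 282 bp (0.495%), and chr15:101028632-101029012 held 3 in 381 bp (1.97%). The 2 sites without a footprint were 343 and 562 bp wide.

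At Nr4a2, 3 of the 6 sites lay on the middle stretch. The 3 sites of the middle stretch covered 28.03% of its 20 kb, against 9.94% at Nr4a1 and 2.19% of the 42 kb at Nr4a3. The widest of them, chr2:56967138-56970535, spanned 3398 bp, and 209 of all sites (0.162%) were at least as wide. It held 20 footprints, where 20.1 were predicted from the class of the widest sites, and 44.3% of that class held as many. The class ran from 1793 to 13152 bp with a median of 2143 bp, so most of its sites were narrower than this one. None of its footprints was among the strongest 10%, and a gap of 1091 bp set 1 footprint apart from the other 19. A site of 631 bp, chr2:56966440-56967070, ended 67 bp before it and held 2 footprints. Joined, the pair covered 4096 bp with 22 footprints.

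The Nr4a2 gene is transcribed toward lower positions, so its 5′ end is toward the high end of the middle stretch. The site nearest to that end, chr2:56975556-56977133, was 1578 bp wide and held 5 footprints, where 13.0 were predicted and 86.9% of sites of like width held as many. The upstream 100 kb had 2 sites. The nearer, chr2:57009149-57009786, held 5 footprints in 638 bp. The farther, chr2:57033839-57035040 at 74.4 kb, held 23 in 1202 bp, the most of the window. It had 19.1 footprints per kb, the highest density of the 38 sites, and 34.9% of its sequence lay in footprints. Of sites of like width, 0.581% held as many. The 3 strongest footprints of the window were in this site, at scores of -10.07, -8.37 and -7.45, the first at chr2:57034556-57034584. On the downstream side a single site of 252 bp, chr2:56918260-56918511, had no footprint. At this locus the broad sites of the middle stretch had the footprints predicted from their width or fewer, and the site with the dense, strong footprints was upstream.

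At Nr4a3 the footprints were concentrated at the low end of the middle stretch. The gene is transcribed toward higher positions, so its 5′ end is toward that end, but its exact place on mm9 was not used here. A pair of sites lay there with 38 bp between them. The first, chr4:48055256-48056871 at -1.94 kb, held 23 footprints in 1616 bp, where 13.0 were predicted and 9.57% of sites of like width held as many. The second, chr4:48056910-48058406 at -0.34 kb, held 16 in 1497 bp (13.0 predicted), and 37.3% of sites of like width held as many. Together they had 39 of the 52 footprints of the window (75%) in 3151 bp. The 3 strongest footprints of the window, at -11.3, -9.68 and -8.36, all lay in the first site, the strongest at chr4:48056377-48056395. Of its 23 footprints 6 were among the strongest 10%, whereas the second site had 0 of 16.

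The other 4 sites of the Nr4a3 window each held 9 footprints or fewer. A site of 511 bp at 1.17 kb, chr4:48058912-48059422, had no footprint, and no other site lay further into the middle stretch. Upstream, chr4:47992310-47992901 held 4 footprints in 592 bp, where 1.37 were predicted. Downstream, chr4:48137276-48138076 held 9 in 801 bp, where 4.37 were predicted, and chr4:48172792-48173352 held 0 in 561 bp. The 2 sites of the pair held more footprints than the other 4 sites together. Relative to the number predicted, the sites of 592 and 801 bp were higher, at 2.92 and 2.06 times, against 1.77 and 1.23 for the pair.

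Each window had 1 pair of sites 100 bp or less apart, a limit chosen after the values were seen. Over the list, 2.29% of 129007 neighbouring distances were that short. The pair at Nr4a1, chr15:101054330-101054950 and chr15:101054970-101055312, was 19 bp apart, at -30.4 and -29.9 kb. It held 2 footprints and 0. The pairs at Nr4a2 and Nr4a3 were the broad stretches of 4096 and 3151 bp on or at the middle stretch.

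**Figure D4:**
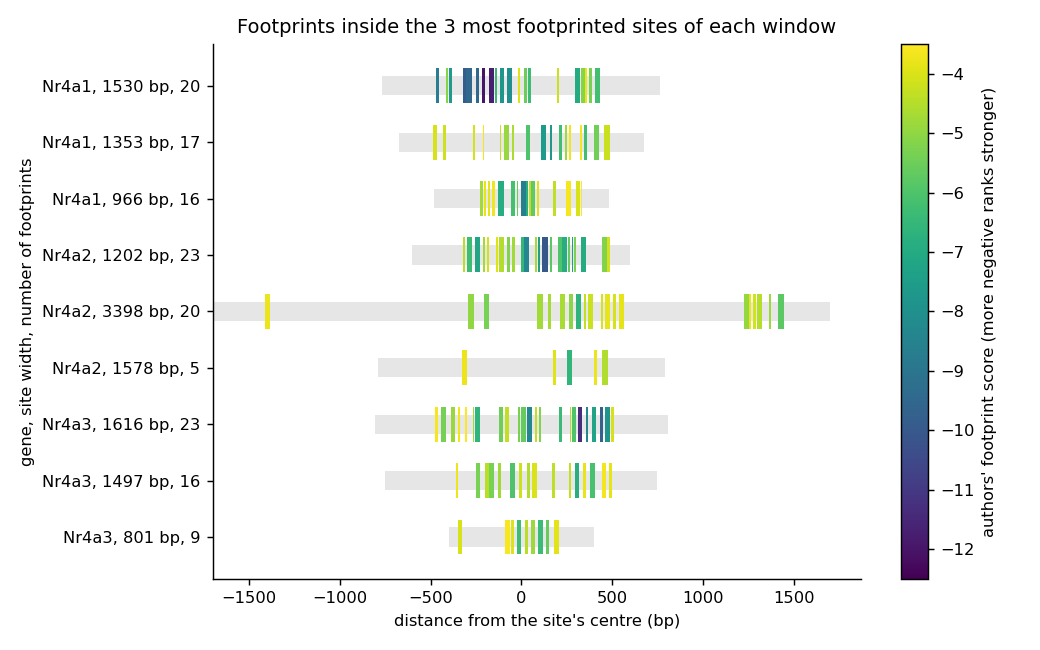
Footprints (coloured bars, to scale) inside the 3 most footprinted DHS sites of each window, as distance in bp from the site's centre. Grey bars are the sites, and darker colour means a lower, stronger score. The row labels give gene, site width in bp and number of footprints. The 3398 bp site at Nr4a2 has wide stretches without a footprint, and the 1202 bp site at Nr4a2 and the 1616 bp site at Nr4a3 are densely filled.

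Median scores at the 3 loci were close to each other. The median was -4.76 at Nr4a1, -4.74 at Nr4a2 and -4.79 at Nr4a3, against -4.38 over all finite scores. The stronger 50% of the list held 109 of 183 (59.6%), 35 of 55 (63.6%) and 32 of 52 (61.5%) of their footprints. The strongest 10%, scores of -7.14 or lower, held 32 at Nr4a1 (17.5%), 5 at Nr4a2 (9.09%) and 6 at Nr4a3 (11.5%). No footprint in the windows had a score of -Inf, which 496 in the list have. The next strongest at Nr4a1 were in sites of the flanks, chr15:101022109-101022132 at -62.9 kb (-12.01) and chr15:101200995-101201022 at 116 kb (-11.79), each in a site of 8 footprints. They sat at 0.0743 and 0.0480 of the distance from the centre to the edge of their sites.

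**Figure D5:**
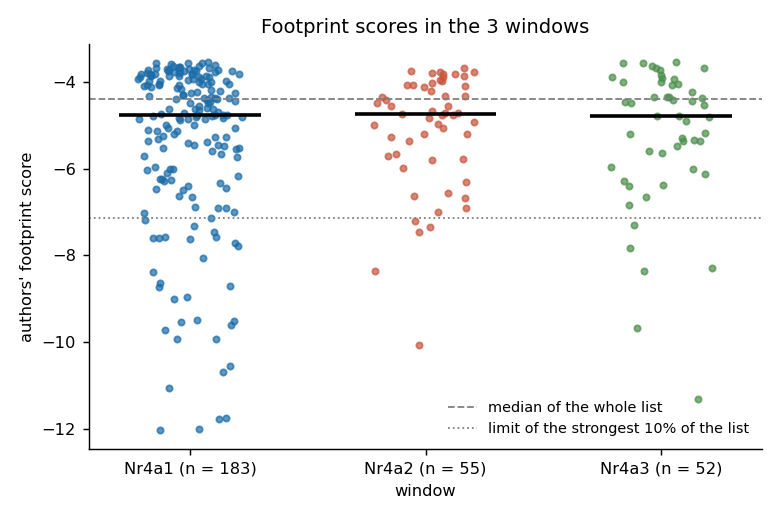
The authors' footprint scores in the Nr4a1, Nr4a2 and Nr4a3 windows. Each point is 1 footprint, black bars are medians (-4.76, -4.74 and -4.79), the dashed line is the median of the whole list (-4.38) and the dotted line the limit of its strongest 10% (-7.14). Lower values rank as stronger.

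Median footprint width and median gap were within a few bp of those of the list. The shares at the 30 bp limit and of short gaps varied more, and both were highest at Nr4a2. There 23 of the 55 footprints lay in 1 site. Footprints had a median width of 21 bp at Nr4a1, 22 bp at Nr4a2 and 20 bp at Nr4a3, against 21 bp in the list, and ran from 8 to 30 bp at each locus. The upper limit of 30 bp was reached by 9.29, 18.2 and 9.62% of them in the same order, against 11.6% of the list. The median gap between neighbouring footprints of a site was 21, 17 and 20.5 bp, against 20 bp. Gaps under 10 bp made up 24.5% of 159, 30.0% of 50 and 18.8% of 48, against 24.4% in the list. Footprints centred nearer to the centre than to the edge of their site were 77.0, 74.5 and 82.7%, against 83.1%. The share of site sequence in footprints was higher than in the list, with 17.8% at Nr4a1, 15.0% at Nr4a2 and 19.0% at Nr4a3, against 8.19%. This share is not matched for site width, and sites without a footprint count in it.

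The sites just inside the edges lay 207 and 3523 bp from them at Nr4a1. The distances were 58260 and 44960 bp at Nr4a2 and 34310 and 26648 bp at Nr4a3. Distances of the sites just outside did not follow this order. At Nr4a1 the first site inside the low edge (5 footprints) began 207 bp from it. The last site inside the high edge had 8 footprints, and the first beyond it, chr15:101205126-101205878, began 125 bp past the edge and had 7. The last site before the low edge was 8564 bp away and held 2. At Nr4a2 the sites just inside the low and the high edge held 0 and 23 footprints, and those just outside, 4922 and 2083 bp from the edges, held 0 and 1. At Nr4a3 the sites just inside held 4 and 0, and those just outside, 8382 and 38018 bp from the edges, held 0 each.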

How the data were processed

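Per the labels, the authors pooled the runs of 1 library before calling sites and footprints. The build is mm9 and HOMER is named, per the submitters' processing notes, without its role, and the footprint caller is not stated in the files or labels. The deposited site list holds positions only. The deposited footprint list adds a column named p-value in its header, whose values are all negative or -Inf. These score values came with the authors' footprint calls, per the file header, on an unstated scale, and only rank footprints within the list. False discovery rates of 0 for sites and 0.01 for footprints, and a maximum footprint width of 30 bp, stand in the lists' names. Positions were taken as BED and are printed 1-based.

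Footprints were assigned to the site they overlapped by 1 bp or more (all 329076 lay fully inside one), checked with bedtools. Predicted numbers are means in 50 classes of site width, of which 49 formed because of ties. The widest class holds sites of unequal width, so its prediction is coarse. The steps were tested on simulated data. Depth is unknown and there were no replicates, so every comparison is a description with no test. Alternatives were other footprints, sites, windows and width classes. Regions named are, per window, the 5 sites with the most footprints, the widest site, all sites on the middle stretch, the 3 strongest footprints and the sites at the edges, and others are said to be chosen after their values were seen. The genes, motifs and lists were chosen with earlier results of these data known. RefSeq promoters (GRCm38.p6) matched 3 of 3 genes. A planned comparison of the proteins was not run. Python 3.11.15, numpy 2.4.6, pandas 2.3.3, scipy 1.17.1, matplotlib 3.10.9 and bedtools 2.31.1 were used.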

Additional observations from a re-analysis of the deposited data

How the results depend on the processing

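No paired analysis was possible because the lists are pooled calls from 1 library. Of 66 values under alternative settings, 58 stayed within the counting interval (shares) or within 1.5 times (densities and ratios), and 8 moved. Among the 58, values for sites fully inside the window and footprints fully inside the site could not move. All sites of the windows and their footprints already met those conditions. Other ratios rose or fell but stayed within 1.5 times. With the stronger 50% of footprints they rose to 1.91 at Nr4a1, 1.37 at Nr4a2 and 1.74 at Nr4a3. Joining sites 100 bp or less apart raised the ratio at Nr4a3 to 1.88. At Nr4a2 the ratio fell from 1.19 to 0.862 with 50 kb taken off both ends. At Nr4a3 it fell from 1.55 to 1.17 with 100 kb taken off, and to 1.34 with 20 width classes. The 8 that moved came from shorter windows or wider sites, which leave 2 to 5 sites. With 100 kb taken off both ends, the density was 15.0 sites per 100 kb at Nr4a2, the same as at Nr4a1, and 4.76 at Nr4a3, the ratio to the predicted number was 2.50 at Nr4a1 and 0.772 at Nr4a2, and the share with a footprint was 66.7% at Nr4a1 and 100% at Nr4a2. With 50 kb taken off, Nr4a2 had 4.17 sites per 100 kb, and among the wider 50% of sites 100% at Nr4a2 had a footprint. Joining sites 100 bp or less apart, chosen after seeing the data, moved none of these values beyond those limits. With 6 sites each, the shares at Nr4a2 and Nr4a3 rest on single sites.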

Other observations

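Promoters of other genes that respond to cyclic AMP or belong to its signalling, such as Creb1 and Crebbp, were searched for the same motif. Of a list of 12 genes, 9 had a RefSeq promoter in the table, and Crem, Sik1 and Egr1 had none. At least 1 TGACG was held by 6 of these 9 (66.7%), against 23.0% of 27025 genes. A gene with several promoters counts by the one with the most copies. The share over all genes is not matched for CG content, which ranged from 1 to 49 CG pairs over the promoters of these 9 genes, and 36.9% of promoters with at least 26 CG pairs held the motif. Of the 3 listed genes with that many pairs, Dusp1 held the motif and Crebbp and Creb1 did not. Dusp1 (a phosphatase of MAP kinases) had 3 copies, of which 2 were the 2 strands of a full TGACGTCA. That palindrome was found in 2.03% of genes. Fos (an AP-1 subunit) had 2, and Fosb, Junb (also AP-1 subunits), Per1 (a clock gene) and Pde4b (a cyclic AMP phosphodiesterase) had 1. Pde4d, Crebbp and Creb1 had none in these windows. The 4 copies in each Nr4a promoter were more than in any of these 9 genes. DHS sites at these genes were not examined.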
